A study of Mus musculus with 8 samples.

Results

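Loxl2, Entpd4, Entpd4b, Gm21451, Gm16867, Gm38378, Gm27177 and Gm37513 are 8 neighbouring genes on mouse chromosome 14 (chr14:69337174-69695834, GRCm38), out of 54749 genes with a transcript in the deposited counts and 39107 with at least 1 count. They were picked because all 8 were higher in asrij KO than in asrij floxed libraries, so the differences between genotypes given here for them are descriptions without a test. Asrij is the mouse gene Ociad1. RNA was collected from LT-HSCs, the blood stem cells that repopulate marrow over a long term, of 4 homozygous asrij floxed mice (replicates 1, 3, 4 and 5) and 4 whole-body asrij KO mice (replicates 2, 3, 4 and 5), with 1 library for each mouse. The labels give bone marrow as the tissue and an age of 6 months for all mice, and the methods give a sort on LSK CD150+ CD48+ cells, although LT-HSCs are CD48- elsewhere in the same methods. They also give mice of both genders and C57BL/6J as the wild-type strain. The floxed mice carry the intact, flanked allele, and the strain background of the floxed and KO mice is not given beyond this.

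Loxl2 encodes lysyl oxidase-like 2, a copper-dependent amine oxidase that is secreted and crosslinks collagen and elastin, and that also acts inside the nucleus on histone H3. It is best known from fibrosis, the basement membrane and the epithelial to mesenchymal transition. Entpd4 encodes a nucleoside diphosphatase of the Golgi and of lysosomal or autophagic vacuoles, which hydrolyses the UDP left over when sugars are added to proteins. The other members are products of genome annotation. Entpd4b is a further protein-coding copy of Entpd4, and Gm21451 is annotated as an unprocessed pseudogene. Gm16867, annotated as protein-coding, and Gm27177, annotated as antisense, are long and lie on the opposite strand. Gm38378 and Gm37513 are single-exon transcripts of the class TEC, which marks models that still await an experiment.

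The 8 genes form 2 copies of one stretch of sequence. The first copy holds Entpd4 (chr14:69337174-69367270), Gm21451 (chr14:69390854-69480287) and Gm38378 (chr14:69395504-69397771), with Gm16867 (chr14:69363504-69503320) running over them on the minus strand. The second copy holds Entpd4b (chr14:69555424-69585520), Loxl2 (chr14:69609068-69695834) and Gm37513 (chr14:69613779-69616046), with Gm27177 running over it (chr14:69582164-69640274 for the transcript counted). The start of the longest Entpd4b transcript lies 218250 bases after that of the longest Entpd4 transcript, and Gm37513 lies 218275 bases after Gm38378. In the GENCODE M21 transcripts, 7 pairs of transcripts from the 2 copies have the same sequence from end to end, and in 5 further pairs one transcript is contained whole in the other. The longest Entpd4 and Entpd4b transcripts (3589 bases) and the Gm38378 and Gm37513 transcripts (2268 bases) are among the pairs with the same sequence.

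The stretches below show where the copies can and cannot be told apart. The first is the start of the coding sequence of Entpd4, which Entpd4b shares base for base. Its start codon is in capitals, and it covers chr14:69347587-69347594 and chr14:69349073-69349184 on the plus strand, in 2 exons.

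Entpd4 and Entpd4b: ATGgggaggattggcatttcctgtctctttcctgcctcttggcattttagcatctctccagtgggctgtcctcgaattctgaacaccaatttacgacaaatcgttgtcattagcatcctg

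A further stretch shows where the match of Loxl2 and Gm21451 stops. Each line joins the last 60 bases of exon 12, in lower case, to the first 60 bases of exon 13, in capitals. Exon 12 ends the same way in both, and 46 of the 60 bases of exon 13 differ. The Loxl2 line covers chr14:69690211-69690270 and chr14:69692314-69692373, and the Gm21451 line covers chr14:69471936-69471995 and chr14:69477396-69477455.

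Loxl2, exons 12 and 13: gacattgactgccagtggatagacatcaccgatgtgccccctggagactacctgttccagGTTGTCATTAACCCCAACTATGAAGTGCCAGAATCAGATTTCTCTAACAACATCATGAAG
Gm21451, exons 12 and 13: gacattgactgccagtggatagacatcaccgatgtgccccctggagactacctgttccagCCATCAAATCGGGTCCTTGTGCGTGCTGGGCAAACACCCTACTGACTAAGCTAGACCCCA

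The last is the first 150 bases of Gm38378 (chr14:69397622-69397771, minus strand), which are also those of Gm37513 (chr14:69615897-69616046, minus strand). Both transcripts were at 0 in every floxed library and no base differs, so none is in capitals.

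Gm38378 and Gm37513: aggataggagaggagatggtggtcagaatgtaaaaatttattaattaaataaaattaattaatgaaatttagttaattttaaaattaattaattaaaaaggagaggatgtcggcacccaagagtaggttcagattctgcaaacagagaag

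Loxl2 and Gm21451 each have 14 exons. Exons 2 to 12 have the same sequence in both (11 exons, 2182 bases, 41.0% of the longest Loxl2 transcript), and exon 1 of Gm21451 is contained in Loxl2. Exons 13 and 14 of Gm21451 are not in Loxl2, and both are contained in Gm27222, a transcript that lies in the gene Slc25a37 upstream of the cluster. Exons 13 and 14 of Loxl2, which hold the end of its coding sequence, therefore have no counterpart in Gm21451. Of all stretches of 50 bases in the longest Loxl2 transcript, 43.6% were found in a transcript of Gm21451 on either strand, against 100% of those of the longest Entpd4 transcript found in Entpd4b. The 5′ end of Gm16867 is of another kind: every 50-base stretch of its transcript Gm16867-202 (342 bases, chr14:69488949-69503232) was also found in Slc25a37, which encodes the mitochondrial iron importer mitoferrin-1.

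A deposited count covers the whole genomic span of a transcript, with introns and both strands. In the cluster and 1 Mb to each side, the transcript with the wider span had at least the count of a transcript nested in it in 287 of 287 nested pairs, 28 of them on opposite strands. The reads of Gm21451 and Gm38378 are thus also counted on Gm16867, and the members are not 8 independent readings. For each gene, the transcript with the most counts over all libraries stood for the gene. CPM below means reads per 1000000 of a library's total over genes after TMM scaling, and values are mean ± SD with n = 4 libraries for each genotype. Totals over genes ranged from 23412829 to 44874882 counts. For a single gene, fewer cells of one type and less RNA in each cell cannot be told apart in such libraries.

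Ociad1 was at 31.3 to 66.9 CPM in floxed and 11.7 to 19.7 CPM in KO libraries (log2 fold change −1.58, SE 0.27, adjusted p = 0.0249). Of 21902 genes tested, 99 were called higher and 162 lower in KO, with an adjusted p under 0.05 and a log2 fold change beyond 1.5 in size. In the 6 libraries that form 3 same-numbered pairs, 23 genes were called without a block and 44 with the pairs as blocks, against 261 in all 8 libraries. Floxed replicate 3 stood apart, with 57.4 CPM of the collagen gene Col1a1 against 4.51 to 6.13 CPM in the other floxed libraries. The LT-HSC markers were present unevenly. Kit was at 46.8 to 60.2 CPM over all libraries and Hlf up to 10.6 CPM, while Hoxb5, Procr and Fgd5 reached at most 0.256, 0.962 and 1.09 CPM. All 11 of these markers summed to 141 to 174 CPM in floxed and 141 to 166 CPM in KO libraries. Of the 10 tested, none was called by edgeR or DESeq2, with log2 fold changes from −0.44 to 1.48. An adjusted p under 0.05 was seen in 1 of them (0.0348), and an unadjusted p under 0.05 in 2. Erythroid markers (8 genes, led by globins) summed to 26661 to 66783 CPM in floxed and 119341 to 291956 CPM in KO libraries. All 8 had a log2 fold change above 0 and 7 had an unadjusted p under 0.05. Of the 8, edgeR called 3 higher and DESeq2 called 6, and neither Hba-a1 nor Hbb-bs was near 0 in any library. The 8 stromal and osteoblast markers summed to 71.4, 247, 75.9 and 74.5 CPM in floxed and 178 to 191 CPM in KO libraries, and the 6 endothelial markers to 14.5, 39.4, 11.2 and 15.1 CPM in floxed and 35.9 to 44.7 CPM in KO libraries. Without floxed replicate 3 neither list overlapped between genotypes, and with all libraries none was called by edgeR in either list (1 and 3 genes had an unadjusted p under 0.05, and DESeq2 called 0 and 1). The 8 myeloid markers summed to 36999, 14643, 39674 and 36856 CPM in floxed and 18448 to 25929 CPM in KO libraries, with none called by edgeR or DESeq2 and none at an unadjusted p under 0.05. Without floxed replicate 3 the myeloid sums did not overlap either and were lower in KO. Of the 8 genes, 1 had a log2 fold change above 0, and the median was −0.56. The 7 B and plasma cell markers summed to 398 to 522 CPM in floxed and 412 to 473 CPM in KO libraries. Of these, 4 had a log2 fold change above 0, at most 0.81. An unadjusted p under 0.05 was seen in 4 and an adjusted p under 0.05 in 2. Jchain alone was called by edgeR, as lower (log2 fold change −1.66, adjusted p = 0.0239), and DESeq2 called 1. The part of these cell types in the values of the cluster was not tested.

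All 8 members passed the filter on low counts and all 8 were called higher in KO, where 0.452% of the tested genes were called higher. In all 8, every KO library lay above every floxed library, which held for 7.10% of the tested genes. The members were chosen from this contrast, so nothing is read from these counts. Gm38378 and Gm37513 passed the filter through the KO libraries alone. The median log2 fold change of the members was 5.25, or 4.67 with these 2 at their lower bound (given with their values), and that of all tested genes was −0.01. The smallest differences among the members were those of Entpd4 (log2 fold change 1.66, SE 0.16) and Entpd4b (1.65, SE 0.16). Just outside them stood Gm27176 and Gm27221, a pair of transcripts within the spans of Entpd4b and Entpd4 that were not chosen, at 1.23 and 1.12.

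**Figure D1:**
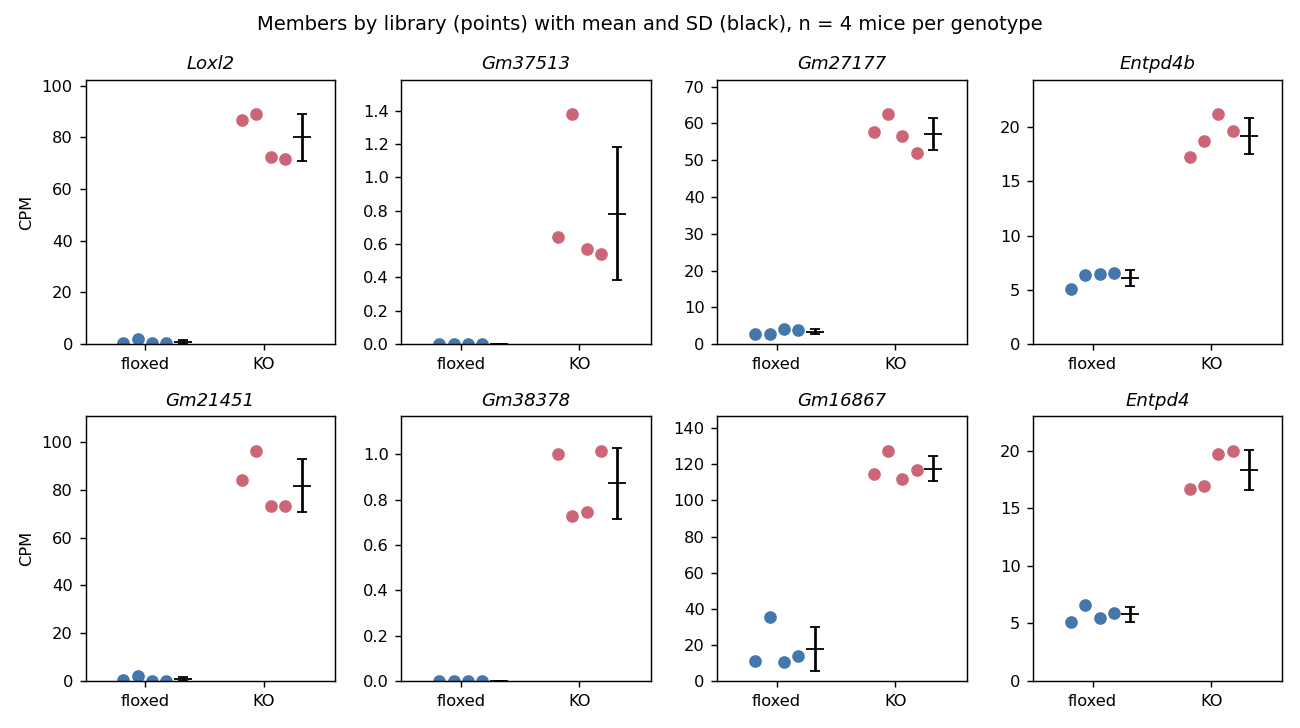
CPM (vertical axes, each from 0) of the 8 members in the 4 floxed (blue) and 4 KO (red) libraries, with the mean and SD in black beside the points. In every panel the KO points lie above the floxed points, and Gm38378 and Gm37513 are at 0 in all floxed libraries.

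Reads over the span of Loxl2 were few in floxed and many in KO libraries. This count holds introns and both strands. In KO libraries 38.1% ± 1.7 of it fell in the window of an antisense transcript, and at the ends of Loxl2 the genotypes overlapped (both below). The values therefore do not give the amount of Loxl2 mRNA. Loxl2 had 23, 107, 10 and 12 counts in floxed replicates 1, 3, 4 and 5, and 3386, 3419, 2040 and 1979 counts in KO replicates 2, 3, 4 and 5. On the CPM scale these were 0.606, 2.02, 0.425 and 0.460 in floxed and 86.8, 88.9, 72.4 and 71.7 in KO libraries. The groups did not overlap, and the highest floxed library was the one that stood apart in Col1a1. The means were 0.879 ± 0.767 and 79.9 ± 9.17 CPM, a ratio of 91.0, which became 161 without floxed replicate 3.

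Gm21451, the pseudogene copy of Loxl2, moved with it. It had 16, 112, 4 and 3 counts in the floxed and 3291, 3706, 2065 and 2019 counts in the KO libraries. The means were 0.706 ± 0.951 and 81.8 ± 11.1 CPM, a ratio of 116, which became 347 without floxed replicate 3. Of the reads counted on Loxl2 or Gm21451, 49.5% ± 1.1 were counted on Loxl2 in KO libraries. Together the pair reached 162 ± 19.9 CPM in KO and 1.59 ± 1.72 CPM in floxed libraries, of which a read from a shared exon could be placed on either gene.

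**Figure D2:**
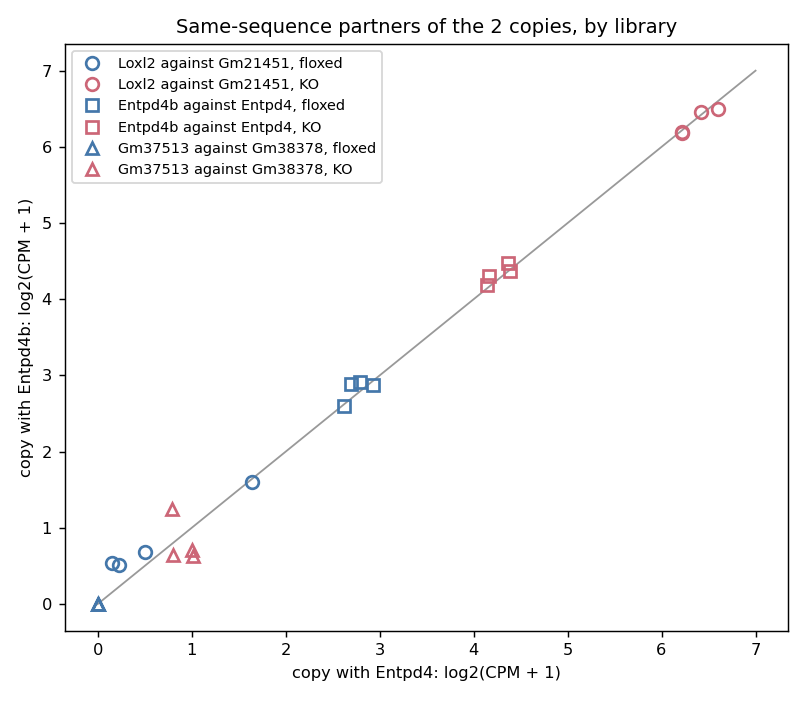
Expression of 3 pairs of partners from the 2 copies, as log2(CPM + 1), with the copy that holds Entpd4 on the horizontal and the copy that holds Entpd4b on the vertical axis. Each marker is 1 library, and the grey line marks equal values. Entpd4b and Entpd4 lie along the line in both genotypes, Loxl2 and Gm21451 do so in KO libraries, and Gm37513 stands off it in KO replicate 3.

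Entpd4 and Entpd4b were expressed in both genotypes. Entpd4 was at 5.14, 6.62, 5.48 and 5.90 CPM in floxed and 16.7, 17.0, 19.7 and 20.0 CPM in KO libraries (5.79 ± 0.636 and 18.3 ± 1.76). Entpd4b was at 5.06, 6.35, 6.42 and 6.55 CPM in floxed and 17.3, 18.7, 21.2 and 19.6 CPM in KO libraries (6.10 ± 0.695 and 19.2 ± 1.64). The ratios were 3.17 and 3.15, smaller than those of Loxl2 and Gm21451. Of the reads counted on either gene, 51.3% ± 2.4 were counted on Entpd4b in floxed and 51.2% ± 1.2 in KO libraries. Because the transcripts have the same sequence, these values are read for the pair (11.9 ± 1.20 and 37.5 ± 3.27 CPM in sum) and not for which copy was transcribed. The counts also hold introns, which were compared only where a transcript covers them. They may hold reads of Gm16867 and Gm27177 from the other strand, so they do not give the amount of Entpd4 and Entpd4b mRNA.

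Within the KO group the genes did not keep the same order of libraries. Loxl2 and Gm21451 were higher in KO replicates 2 and 3 than in 4 and 5, and Entpd4 was lower there. On the log2(CPM + 1) scale, Loxl2 differed between genotypes by 5.33 among replicates 1 to 3 and by 5.66 among replicates 4 and 5, and Entpd4 by 1.38 and 1.64. The labels do not call these numbers a batch.

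Gm38378 and Gm37513 lie in the first introns of Gm21451 and Loxl2. Both had 0 counts in all 4 floxed libraries. Gm38378 had 39, 28, 21 and 28 counts and Gm37513 had 25, 53, 16 and 15 counts in the KO libraries. Against a floor of 3 counts over the floxed group, Gm38378 was at least 40.7-fold and Gm37513 at least 38.3-fold higher in KO. Gm37513 had its highest value in KO replicate 3, where Gm38378, with the same sequence, had its lowest CPM. Summed over the pair the KO libraries had 64, 81, 37 and 43 counts, at least 79.0-fold above the floor.

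Gm16867 and Gm27177 run on the strand opposite to Entpd4, Gm21451, Entpd4b and Loxl2 and collect reads from several of them. Gm16867 was at 11.1, 35.6, 10.5 and 13.6 CPM in floxed and 114, 127, 112 and 117 CPM in KO libraries, a ratio of means of 6.65, which became 10.04 without floxed replicate 3. Its end that matches Slc25a37 held 67.1% ± 10.3 of its reads in floxed and 13.8% ± 3.8 in KO libraries. Without that end, Gm16867 was at 5.13 ± 1.93 CPM in floxed and 102 ± 9.53 CPM in KO libraries, a ratio of 19.8. The count of Gm21451 came to 69.3% ± 6.3 of the count of Gm16867 in KO and 3.06% ± 2.3 in floxed libraries. Gm27177 was at 2.80, 2.80, 4.17 and 3.83 CPM in floxed and 57.7, 62.5, 56.6 and 51.9 CPM in KO libraries, a ratio of 16.8.

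Because wider and narrower transcripts of the cluster nest in each other, subtracting one count from another placed the reads along it. The sparsest stretches in floxed libraries were those around Loxl2 and Gm21451. The 48199 bases of Gm27177-205, which reach from between Entpd4b and Loxl2 to intron 2 of Loxl2, had 5, 21, 1 and 2 counts in floxed and 1825, 1833, 1069 and 1008 counts in KO libraries. The 88483 bases of Gm16867-204 outside Gm16867-201, which hold most of Gm21451, had 4, 21, 2 and 4 counts in floxed and 2155, 2435, 1315 and 1355 counts in KO libraries. The ratios of the mean CPM were 261 and 289, and became 505 and 467 without floxed replicate 3.

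The densest stretch in KO libraries was a window of 2703 bases inside Loxl2 (chr14:69680584-69683286, the antisense transcript Gm27177-202). It had 0 counts in all 4 floxed libraries and 1231, 1262, 804 and 786 counts in the KO libraries, at least 1434-fold above a floor of 3 counts over the floxed group. It makes up 3.12% of the span of Loxl2 and held 38.1% ± 1.7 of its reads in KO libraries. Per length, it reached 11.2 ± 0.81 CPM per kb, and the rest of Loxl2 reached 0.590 ± 0.083 CPM per kb. Its copy in Gm16867-201, counted together with other sequence up to the Slc25a37-like end, had 1265, 1457, 865 and 825 counts in KO and 25, 243, 12 and 18 counts in floxed libraries.

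The ends of Loxl2 did not follow the rest of the gene. The longest Loxl2 transcript extends past the other on both sides, by 2546 bases in all, most of them in exon 14, which has no counterpart in Gm21451. These bases had 7, 58, 8 and 8 counts in floxed and 18, 12, 8 and 19 counts in KO libraries. The groups overlapped, at 0.189 ± 0.163 CPM per kb in floxed and 0.171 ± 0.073 CPM per kb in KO libraries, a ratio of 0.905, which became 1.57 without floxed replicate 3. The shorter transcript Loxl2-202, which lacks these ends, held 42.2% ± 21.1 of the reads of the gene in floxed and 99.4% ± 0.28 in KO libraries. Mir6950, a microRNA gene at the start of Loxl2 exon 13, had 1 count in floxed replicate 3 and 0 in the other 7 libraries, but spans too few bases for that to set it apart from the gene around it.

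In Entpd4 and Entpd4b the difference was uneven along the gene. The window of the transcript Entpd4-204 (3658 bases, chr14:69362559-69366216) had 72, 118, 69 and 71 counts in floxed and 413, 395, 391 and 388 counts in KO libraries. It covers exons 11 and 12 of the longest Entpd4 transcript and 697 of the 1751 bases of exon 13. The rest of exon 13 lies outside it. The mean CPM of this window differed by a ratio of 4.99, and that of its copy in Entpd4b by 5.46. Outside the window, the ratios were 1.84 in Entpd4 and 1.79 in Entpd4b. The window held 42.6% ± 9.0 of the Entpd4 reads in floxed and 66.2% ± 5.0 in KO libraries, and the groups of 4 did not overlap. Gm16867 and Gm27177 overlap the ends of Entpd4 and Entpd4b on the other strand, both inside and outside these windows. Without strand their reads cannot be told from those of Entpd4 and Entpd4b. The transcripts Entpd4-205 and Entpd4b-201, which end after the first exons, rest on few reads. Entpd4-205 had 31, 32, 2 and 11 counts in floxed and 60, 61, 41 and 33 counts in KO libraries, a ratio of the mean CPM of 2.99, and that of Entpd4b-201 was 2.64, with 3 of 4 KO libraries above every floxed library.

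**Figure D3:**
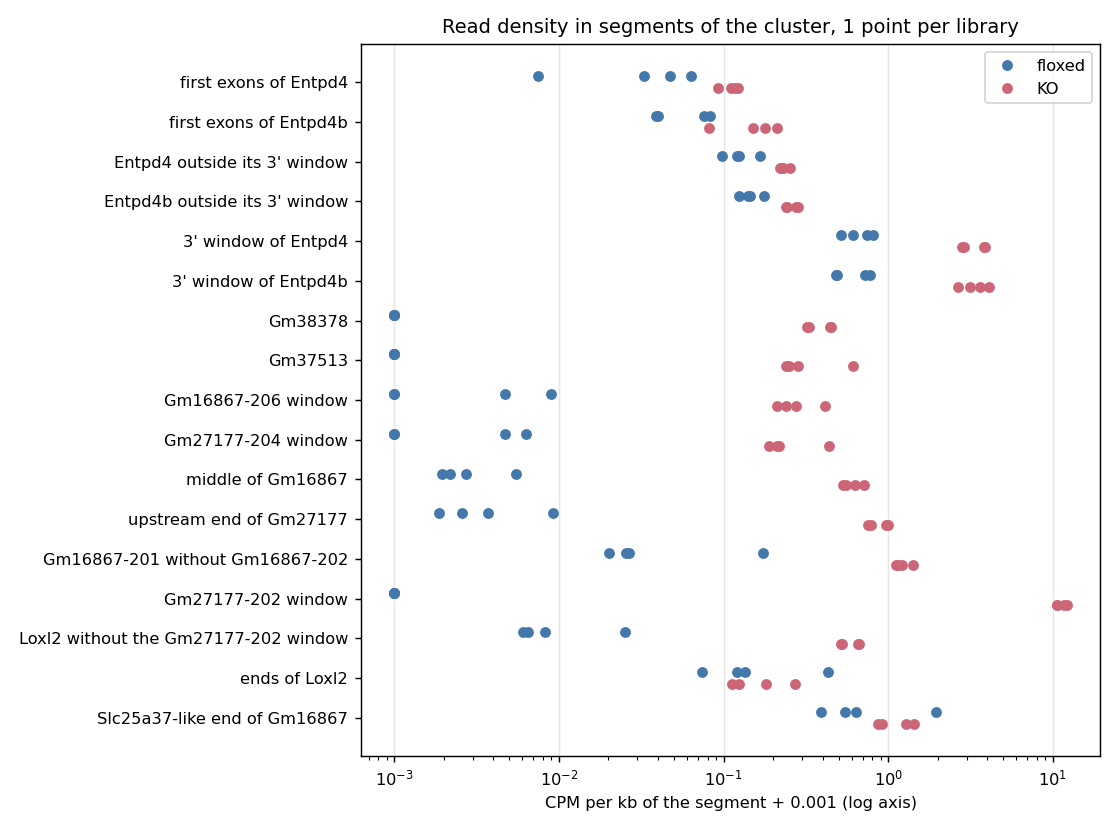
Read density in 17 segments of the cluster, as CPM per kb of the segment plus 0.001 on a log axis, with 1 point for each floxed (blue) and KO (red) library; points at 0.001 stand for 0 counts. The Gm27177-202 window reaches the highest KO values with 0 counts in floxed libraries, while the groups overlap at the ends of Loxl2 and at the Slc25a37-like end of Gm16867.

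The genes around the cluster were not called. In the span of the members and 1 Mb to each side lay 67 further genes, of which 60 had a count and 40 were tested. None was called by edgeR, where 1.19% of all tested genes were called in either direction, although 9 had an unadjusted p under 0.05. The members were picked out of this neighbourhood by their difference, and the neighbours are the genes left over. The lack of calls among them was thus partly set by that choice, and nothing is read from it. DESeq2 called 2, Phyhip and Dmtn, and edgeR called the same 2 with no filter on low counts (adjusted p = 0.0183 and 0.0286) and without floxed replicate 3 (log2 fold changes 2.42 and 2.09). Those 2 also had the largest edgeR log2 fold changes, with Phyhip at 1.82 (SE 0.45, adjusted p = 0.0574) and Dmtn at 1.49 (SE 0.39, adjusted p = 0.0675). Phyhip encodes a protein that binds phytanoyl-CoA hydroxylase, and Dmtn encodes dematin, an actin-bundling protein of the red cell membrane skeleton. Next was Gm27176, at 0.817, 0.738, 0.765 and 0.537 CPM in floxed and 2.05, 1.72, 1.28 and 1.67 CPM in KO libraries (adjusted p = 0.0605), which shares its reads with Entpd4b. The median log2 fold change of the 40 neighbours was 0.19.

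The nearest tested genes beyond the ends of the cluster were not called. On the Entpd4 side, Gm27223 and Gm31748, transcripts at the start of Slc25a37, had log2 fold changes of 0.51 (SE 0.43, adjusted p = 0.538) and 0.46 (SE 0.43, adjusted p = 0.580). Their ratios of mean CPM, 1.43 and 1.39, became 2.24 and 2.15 without floxed replicate 3, and the other 3 floxed libraries lay below every KO library. Gm27175 and Gm37847, at the Slc25a37-like end inside the cluster, had similar log2 fold changes of 0.48 and 0.43. Of the 50-base stretches of Gm16867-202, 70.0% were found in Gm31748. A read from such shared sequence could be placed inside or outside the cluster. Slc25a37 itself was at 638, 1435, 563 and 567 CPM in floxed and 1380 to 1474 CPM in KO libraries (log2 fold change 0.84, SE 0.32, adjusted p = 0.166), a ratio of 1.79, or 2.44 without floxed replicate 3. On the Loxl2 side, R3hcc1, the next gene after Loxl2, was at 5.75 to 8.16 CPM in floxed and 8.41 to 10.5 CPM in KO libraries (log2 fold change 0.31, SE 0.18, adjusted p = 0.356), and its groups did not overlap. Next to it, Chmp7, which encodes a subunit of the ESCRT-III membrane remodelling machinery, had a log2 fold change of −0.01 (SE 0.15, adjusted p = 0.979). In R3hcc1 and Chmp7 the difference was smaller than 2 SE.

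**Figure D4:**
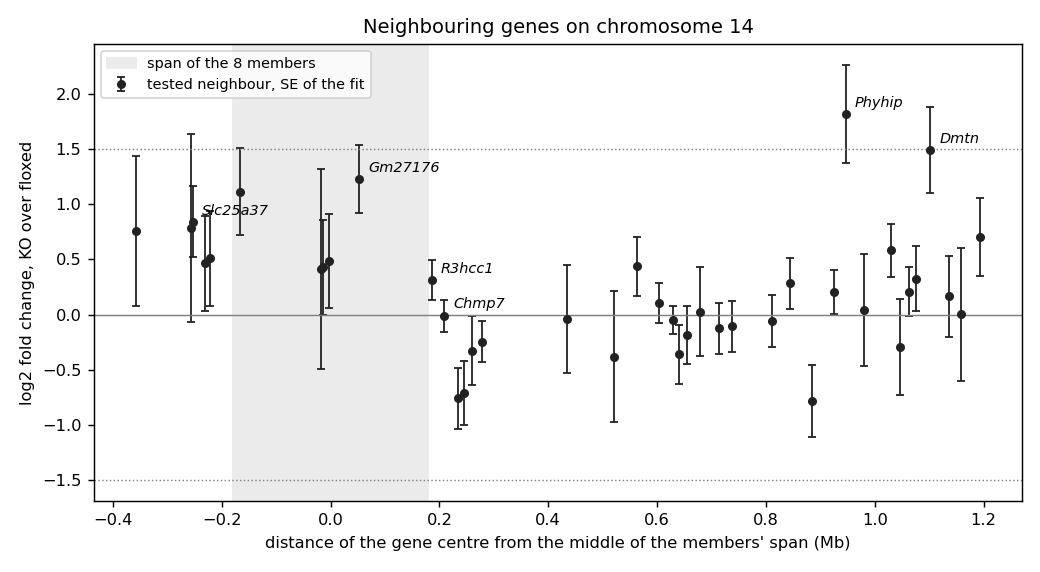
Log2 fold change of KO over floxed (vertical axis, with the SE of the edgeR fit) for the 40 tested neighbours, by the distance in Mb of the gene's centre from the middle of the cluster. Grey shading marks the span of the 8 members, which are not plotted, and dotted lines mark the limit of 1.5 in each direction. Phyhip alone lies above the limit, and R3hcc1 and Chmp7, next to Loxl2, lie at 0.31 and −0.01.

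No other lysyl oxidase or Entpd gene was called, where 1.19% of all tested genes were called in either direction. At that share lists this small would mostly hold no call, so nothing is read from it. Of the 4 other lysyl oxidase genes, Lox, Loxl1 and Loxl3 were tested and Loxl4 had too few counts. Loxl3 had the most reads, at 11.8, 11.9, 12.6 and 10.1 CPM in floxed and 21.4, 17.1, 15.1 and 14.2 CPM in KO libraries (log2 fold change 0.55, SE 0.18, adjusted p = 0.112), and its groups did not overlap. Lox, which gives the family its name, had a log2 fold change of −0.65 (adjusted p = 0.416) and Loxl1 of 0.80 (adjusted p = 0.411). By an unadjusted p under 0.05, Loxl3 alone passed among the 3, and DESeq2 called none.

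Of the 7 other Entpd genes, 5 were tested, and Entpd2 and Entpd8 had too few counts. Entpd1, which encodes the surface ectonucleotidase CD39, was at 107, 70.1, 92.4 and 94.0 CPM in floxed and 59.2, 65.9, 59.0 and 56.1 CPM in KO libraries (log2 fold change −0.60, SE 0.16, adjusted p = 0.0687). Entpd3, a further surface enzyme, had a log2 fold change of −1.24 (SE 0.33, adjusted p = 0.0715), and Entpd5, a UDPase of the endoplasmic reticulum, of −0.49 (SE 0.16, adjusted p = 0.113). Entpd7 was at −0.47 (adjusted p = 0.254) and Entpd6 at 0.28 (adjusted p = 0.490). Among these 5, 3 had an unadjusted p under 0.05 and DESeq2 called none. Of the 5, 1 had a log2 fold change above 0. Entpd4 was chosen as higher in KO, so nothing is read from its sign beside theirs.

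Genes of the pathways in which both enzymes work were not called either. With 1.19% of all tested genes called in either direction, lists of this size would mostly hold no call, so nothing is read from it. The share of all tested genes with an unadjusted p under 0.05 is not given here, so nothing is read from those counts. Of 19 genes for collagens, elastic fibres, collagen processing and partners of Loxl2 in the mesenchymal transition, 16 were tested and 1 had an unadjusted p under 0.05. That gene was Fn1, which encodes fibronectin, at 647, 273, 374 and 465 CPM in floxed and 235, 241, 203 and 223 CPM in KO libraries (log2 fold change −0.96, SE 0.26, adjusted p = 0.0683). Next was Col5a1, at 0.40 (adjusted p = 0.306). Of 16 genes for the handling of nucleotides and nucleotide sugars, all 16 were tested and 6 had an unadjusted p under 0.05. Uggt1, the glucosyltransferase that uses UDP-glucose to mark misfolded glycoproteins, had a log2 fold change of −0.56 (SE 0.14, adjusted p = 0.0560), and Nme1, a nucleoside diphosphate kinase, of 0.69 (SE 0.19, adjusted p = 0.0736). DESeq2 called none of either list. The median log2 fold changes were −0.05 and −0.11. Without floxed replicate 3, edgeR called 2 genes of these lists, Col1a1 (1.73) and Col1a2 (2.12), the collagen genes in which that library stood apart.

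The genes with a pattern most like that of Loxl2 outside the cluster were found by the root mean square difference of log2(CPM + 1), centred for each gene, over the 8 libraries. Among members, Gm21451 was nearest (0.167) and Gm27177 next (0.979). Among other genes, Ifi44l on chromosome 3 was nearest (0.704), followed by 2610035D17Rik (1.25), 5830444B04Rik (1.35), Ppbp (1.37) and Ifi44 (1.46). Ifi44l, an interferon-stimulated gene, was at 0.105, 0.057, 0.170 and 0.613 CPM in floxed and 26.9, 24.1, 22.6 and 25.5 CPM in KO libraries. Ifi44, its neighbour in the same family, was at 2.18 ± 1.09 CPM in floxed and 19.0 ± 3.05 CPM in KO libraries. Ppbp, which encodes a platelet chemokine, was at 6.33, 29.1, 7.74 and 5.44 CPM in floxed libraries, so that floxed replicate 3 was high in it as in Loxl2. The measure depends on the size of the step between genotypes as well as on the order of the libraries.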

How the data were processed

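Per the methods, reads were checked with FastQC, trimmed with Trim Galore and aligned to GRCm38/mm10 reference transcripts with Bowtie 2. The authors deposited counts, without normalization, for 138930 Ensembl transcripts in each of the 8 libraries. The counting tool, annotation release and use of strand are not given in the sources used here, and a read that fits both copies of the cluster may have been placed on either. In 7 of the 8 tables the columns are split by tabs although the name promises commas, and these were recorded as another unit for that reason, although the authors deposited counts in all 8.

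GENCODE M21 (GRCm38) held 138789 of the identifiers, 137913 in the same version, and its transcript sequences gave the printed stretches. A further shared stretch is not reported here. The transcript with the most counts in all libraries together stood for its gene. Genes were filtered with filterByExpr by genotype, scaled by TMM and tested with edgeR 4.0.16 under R 4.3.3 (glmQLFTest), and p-values were adjusted by Benjamini-Hochberg over all 21902 genes tested. A gene was called with an adjusted p under 0.05 and a log2 fold change beyond 1.5 in size, and DESeq2 1.42.0 was an alternative. The fits were tested on simulated counts. Means over log values used log2(CPM + 1). Spans were divided by subtracting the count of a nested transcript. Intervals were not computed for shares, which are means over libraries.

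The 8 members, the gene lists and the rules for naming genes were chosen with earlier results of these data known. Named were the members, Ociad1, neighbours called or else the 3 with the largest change, the 2 nearest tested genes on each side, all tested Lox and Entpd genes, genes of the matrix and nucleotide lists called or else the 2 with the smallest adjusted p, and the 5 other genes most like Loxl2. Other genes were named after their values were seen.

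Replicate numbers 3, 4 and 5 occur in both genotypes. Deviations from the group means correlated at 0.374 to 0.579 within these 3 same-numbered pairs, although the mice differ, so a fit with the number as a block is printed beside a fit of the same 6 libraries without it, which was added after the data had been seen. Floxed replicate 1 with KO replicates 2 and 3, and replicates 4 and 5 across numbers, correlated as well (0.384 to 0.603 for 4 with 5). The alternatives were other scalings, filters, tests, thresholds and pseudocounts, sums over transcripts, the block, parts of the replicates, and leaving out each library.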

Additional observations from a re-analysis of the deposited data

Results flagged for a closer look

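Of 64 groups of 4 libraries examined over the 33 named genes, 6 held a library far from the other 3 on the log2(CPM + 1) scale, by Dixon's test, and chance alone gives about 1 in 20 such groups (3.2 of 64). Loxl2 was at 1.596 in floxed replicate 3, against 0.511 to 0.684 in the other floxed libraries. Entpd4b was at 2.60 in floxed replicate 1, against 2.88 to 2.92. Gm37513 was at 1.25 in KO replicate 3, against 0.626 to 0.714 in the other KO libraries. Entpd3 was at 1.42 in floxed replicate 3, against 1.86 to 1.93, and at 0.649 in KO replicate 4, against 1.11 to 1.17. Entpd7 was at 3.71 in floxed replicate 3, against 4.54 to 4.63. Floxed replicate 3 accounted for 3 of the 6.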

How the results depend on the processing

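Every member stayed higher in KO under all 15 alternatives. The members were chosen as higher in KO in these same libraries, so this direction was largely set by the choice and nothing is read from it. Of 120 differences in mean log2(CPM + 1), 106 moved by less than the spread between replicates and 14 by more, none of these by leaving out a single library. Loxl2 ranged from 5.33 to 6.00, Gm21451 from 4.79 to 6.35, Entpd4 from 1.34 to 1.73 and Entpd4b from 1.34 to 1.67. The median over members was 2.18, 2.40 within replicates 4 and 5, 2.11 with the replicate block, and 2.08 to 2.40 with each library left out, the highest without floxed replicate 3.

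The 261 calls over all genes became 503 with DESeq2's Wald test, 651 by an adjusted p under 0.05 alone, 44 with the replicate block in 6 libraries, 23 in the same 6 libraries unblocked (added after the data had been seen), and 51 to 857 with each library left out. The highest count came without floxed replicate 3, floxed replicate 4 gave 156, and each of the other 6 libraries gave 51 to 78. Neighbours called numbered 2 rather than 0 with no filter on low counts, with DESeq2 and without floxed replicate 3, and each time they were Phyhip and Dmtn. With each library left out, matrix and nucleotide genes called ranged from 0 to 2, and neighbours from 0 to 2. Lox and Entpd genes called stayed at 0 under all alternatives, and the replicate block called none in any of these lists. The cause of these changes was not tested. With 10 to 107 counts of Loxl2 in a floxed library, the ratio between genotypes rests on few reads.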
